A study of Mus musculus with 21 samples.

Results

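Connexins are the membrane proteins of gap junctions. Several connexin molecules assemble into a hemichannel, and hemichannels of neighbouring cells dock to form a channel that passes ions and small metabolites such as calcium signals and nucleotides. Keratinocytes make several connexins at once, in amounts that differ with the layer of the epidermis, and inherited mutations of human GJA1, GJB2 and GJB6 cause disorders of skin, hair or hearing. Transcripts of 4 connexin genes of the epidermis, Gja1, Gjb2, Gjb5 and Gjb6, were followed in mouse epidermal sheets. They were taken by symbol from the 49315 Ensembl gene identifiers counted, and they are 4 of 20 connexin genes listed there. Gja1 encodes Cx43, Gjb2 encodes Cx26, Gjb5 encodes Cx31.1 and Gjb6 encodes Cx30.

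The series asked what the transcription factors AP-2a (Tfap2a) and AP-2b (Tfap2b) do in adult epidermis, and held 21 RNA-seq libraries in 7 groups of 3. In 13 libraries every gene was listed at 0, which left 8 libraries with 11318181 to 17746284 counts. These were 3 strain-specific controls of 6 months with the genotype WT, 3 double knockouts of 6 months with the genotype K14CreTfap2afl/flTfap2bfl/fl, and 2 Tfap2b knockouts of 3 weeks with the genotype K14CreTfap2bfl/fl. The double knockout carries floxed alleles of both genes and the single knockout those of Tfap2b, each with a Cre recombinase driven by the K14 promoter, which is active in keratinocytes of the basal layer. Melanocytes, immune cells and dermal cells carried over with the sheet are outside that promoter's usual range. Only the 6-month groups could be compared with each other, since no control of 3 weeks held counts. The labels do not say whether libraries of a group came from separate mice, so p-values measure the spread between these libraries, which may be technical in part.

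The gene-level counts of the targeted genes did not show their loss. Tfap2a stood at 172 ± 35.4 CPM (counts per 1000000 counts of the library) in the controls and 250 ± 51.6 CPM in the double knockouts (SD over n = 3 in both groups). The log2 fold change was 0.47 ± 0.189 (SE; edgeR quasi-likelihood test, adjusted p = 0.118). Tfap2b stood at 71.6 ± 14.7 CPM and 56.0 ± 1.87 CPM (log2 fold change -0.43 ± 0.169 SE, edgeR adjusted p = 0.111). Without control 3, Tfap2a passed the threshold as higher (0.72, adjusted p = 0.016). Their paralog Tfap2c rose by 0.50 (edgeR adjusted p = 0.0384), a call lost without control 2 or any 1 of the double knockouts (adjusted p = 0.0812 to 0.106). Counts over whole genes include exons that a floxed allele may leave in place, so they do not check the deletion, and "double knockout" below means the libraries labelled so. Controls 1 and 2 stood apart from the other libraries. Over 1420 olfactory and vomeronasal receptor genes, which epidermis is not known to use, controls 1 and 2 held 1.61 and 3.19 counts per exonic kb, control 3 held 0.147, and the other libraries held 0.0971 to 0.195.

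Gja1, Gjb2 and Gjb6 rose in the double knockout, by 2.43-fold, 7.89-fold and 6.82-fold, and Gjb5 did not pass the test (fold 0.916). Of the 4 members 3 were called higher and 0 lower at an adjusted p of 0.05. Among the 17755 genes tested, 14.9% were called, 6.26% higher and 8.59% lower. The same 3 members had every double knockout library above every control library, an arrangement that 38.7% of the genes tested showed in either direction and 22.5% in that direction. The same 3 were also at least 2-fold higher and called, as were 2.83% of the genes tested. All 4 members passed the filter on low counts.

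**Figure D1:**
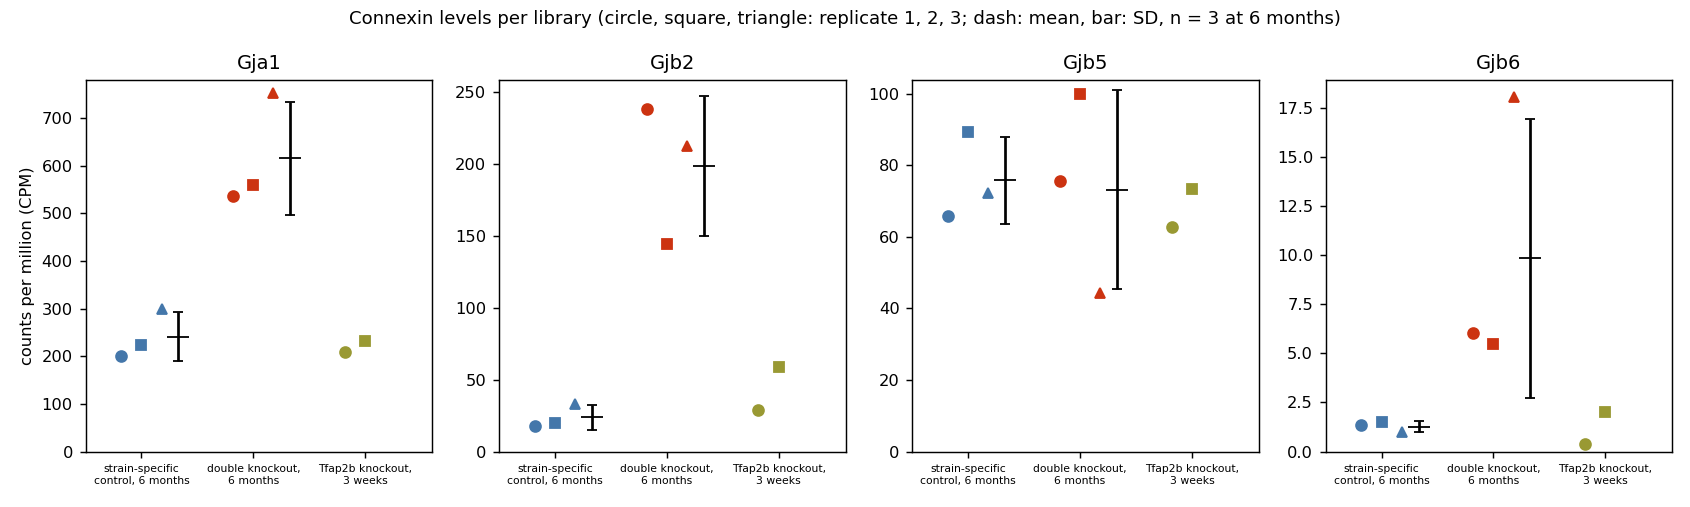
CPM of each connexin (vertical axis, a separate linear scale from 0 in each panel) in the 8 libraries with counts, grouped on the horizontal axis; symbols are replicates, and the dash and bar are the mean and SD of the 6-month groups, n = 3 each. Gja1, Gjb2 and Gjb6 are above all controls in all 3 double knockout libraries, whereas the Gjb5 groups overlap.

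The sequence just before each transcription start is printed here because AP-2 factors bind GC-rich sites of the form GCCNNNGGC. Each line gives the 250 bases before the RefSeq start of the gene, read 5′ to 3′ on the gene's own strand, from the RefSeq table on GRCm38.p6. All 4 members matched that table. Capitals mark matches, on either strand, to 6 motifs, and matches can overlap one another. The motifs were GCCNNNGGC and its form with 1 more N (AP-2), TGANTCA for AP-1, GGGCGG for the GC box, TATAAA for the TATA box, and CCAAT for the box of that name.
Gja1: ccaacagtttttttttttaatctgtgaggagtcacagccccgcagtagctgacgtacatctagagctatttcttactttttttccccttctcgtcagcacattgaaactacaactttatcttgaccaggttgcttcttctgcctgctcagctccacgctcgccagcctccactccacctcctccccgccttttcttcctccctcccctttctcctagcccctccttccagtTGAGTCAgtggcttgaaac
Gjb2: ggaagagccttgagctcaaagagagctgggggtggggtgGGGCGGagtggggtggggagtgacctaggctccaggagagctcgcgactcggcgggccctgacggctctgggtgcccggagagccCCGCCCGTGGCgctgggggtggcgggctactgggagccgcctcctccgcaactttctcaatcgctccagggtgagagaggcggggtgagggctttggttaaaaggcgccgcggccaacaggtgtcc
Gjb5: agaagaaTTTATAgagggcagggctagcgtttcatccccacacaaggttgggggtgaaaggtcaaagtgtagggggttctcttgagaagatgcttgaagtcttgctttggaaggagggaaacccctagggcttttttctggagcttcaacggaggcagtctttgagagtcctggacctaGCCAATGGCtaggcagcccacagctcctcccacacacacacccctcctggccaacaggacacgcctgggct
Gjb6: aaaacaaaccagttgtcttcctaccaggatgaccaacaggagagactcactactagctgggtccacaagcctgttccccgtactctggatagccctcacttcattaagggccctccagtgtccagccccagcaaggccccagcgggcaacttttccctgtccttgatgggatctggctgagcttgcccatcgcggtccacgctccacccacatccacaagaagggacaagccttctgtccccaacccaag
The windows are chr10:56377050-56377299 on the plus strand for Gja1, and on the minus strand chr14:57104703-57104952 for Gjb2, chr4:127358165-127358414 for Gjb5 and chr14:57133612-57133861 for Gjb6.

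AP-2 matches stood before Gjb2, which rose, and before Gjb5, which did not pass the test. In Gjb2 the match was GCCCGTGGC at bases -124 to -116, counted from -1 at the base just before the start, and it overlapped a GC box at -126 to -121. A further GC box lay at -211 to -206. In Gjb5 the match was GCCAATGGC at -71 to -63, with a CCAAT box inside it at -70 to -66 and a TATA box letter match on the minus strand at -243 to -238. The Gja1 window held an AP-1 match, TGAGTCA, at -19 to -13 and no AP-2 match, and the Gjb6 window held none of these motifs. Over 32851 promoter windows of the same length, 13.7% held the first AP-2 form, 12.3% the longer form, 6.75% the AP-1 motif, 32.7% a GC box, 12.4% a TATA box and 33.8% a CCAAT box. The GC content was 69.2% before Gjb2, 56.8% before Gjb6, 54.4% before Gjb5 and 50% before Gja1, with a median of 52.4% over all windows. These matches are letters in a window, not sites shown to be bound.

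Gja1 encodes the most widely used gap junction protein of the body, found in the basal and spinous layers of mouse epidermis. Its gene (ENSMUSG00000050953) lies on chromosome 10 from 56377300 to 56390419, plus strand, with 3105 exonic bases. Gja1 stood at 200, 225 and 300 CPM in controls 1, 2 and 3, and at 536, 560 and 752 CPM in double knockouts 1, 2 and 3. The groups did not overlap, and replicate 3 was the highest library in each. The means were 241 ± 52.0 and 616 ± 119 CPM (SD over n = 3 in both groups), and the log2 fold change was 1.28 ± 0.190 (SE; 95% interval 0.86 to 1.70; edgeR adjusted p = 0.00359). These values rest on 2404 to 13352 counts per library. Against control 3 alone the log2 fold change was 0.99 and missed the threshold (adjusted p = 0.0879), with a single control library taken to vary like the double knockouts.

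Gjb2 encodes a connexin that is scarce in normal interfollicular epidermis and known to rise at wound edges and in psoriasis. Its gene (ENSMUSG00000046352) lies on chromosome 14 from 57098600 to 57104702, minus strand, with 2406 exonic bases. Gjb2 stood at 17.6, 20.1 and 33.4 CPM in the controls (212, 228 and 513 counts), and at 238, 144 and 213 CPM in the double knockouts (3286, 2116 and 3772 counts). The groups were far from overlapping, and the highest control was replicate 3. The means were 23.7 ± 8.48 and 198 ± 48.5 CPM (SD over n = 3 in both groups), and the log2 fold change was 2.98 ± 0.273 (SE; 95% interval 2.37 to 3.60; edgeR adjusted p = 0.000527). Gjb2 passed the threshold under all 17 alternatives tried, with log2 fold changes of 2.51 to 3.39. The lowest of these was against control 3 alone (adjusted p = 0.0258).

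Gjb6 encodes the closest relative of the Gjb2 protein, with which it forms mixed channels in the inner ear, and its human gene is mutated in a hidrotic ectodermal dysplasia. Its gene (ENSMUSG00000040055) is the neighbour of Gjb2 on chromosome 14, from 57123303 to 57133611, minus strand, with 2269 exonic bases. Gjb6 stood at 1.33, 1.5 and 0.977 CPM in the controls, from 16, 17 and 15 counts. In double knockouts 1, 2 and 3 it stood at 6.01, 5.45 and 18.0 CPM, from 83, 80 and 320 counts. All double knockout libraries were above all controls, and replicate 3 stood well above the other libraries of its group. The means were 1.27 ± 0.268 and 9.83 ± 7.11 CPM (SD over n = 3 in both groups), and the log2 fold change was 2.77 ± 0.533 (SE; 95% interval 1.71 to 4.09; edgeR adjusted p = 0.00951).

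Without double knockout 3 the Gjb6 log2 fold change was 2.02 (adjusted p = 0.0297). Gjb6 missed the threshold with limma-voom (2.73, adjusted p = 0.0517) and against control 3 alone (3.13, adjusted p = 0.203). At the receptor background, a gene of its length would hold 3.65, 7.24 and 0.334 counts in controls 1, 2 and 3 beside the 16, 17 and 15 counted. With the background subtracted the log2 fold change was 3.07.

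Gjb5 encodes a connexin of differentiating keratinocytes. Its gene (ENSMUSG00000042357) lies on chromosome 4 from 127354809 to 127358181, minus strand, with 1721 exonic bases. Gjb5 stood at 65.7, 89.2 and 72.3 CPM in the controls and at 75.5, 99.8 and 44.3 CPM in the double knockouts. The groups overlapped, and the double knockouts held both the highest and the lowest library. The means were 75.7 ± 12.1 and 73.2 ± 27.8 CPM (SD over n = 3 in both groups), and the log2 fold change was -0.13 ± 0.263 (SE; 95% interval -0.72 to 0.46; edgeR adjusted p = 0.769). The interval leaves room for a fold between 0.607 and 1.38. The sign turned without double knockout 3 (0.17) and without control 2 (0.01). Across the other ways of fitting, Gjb2 kept its call in 17 of 17, Gja1 in 16, Gjb6 in 15 and Gjb5 was called in 0, with adjusted p-values from 0.341 to 0.987 for Gjb5.

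**Figure D2:**
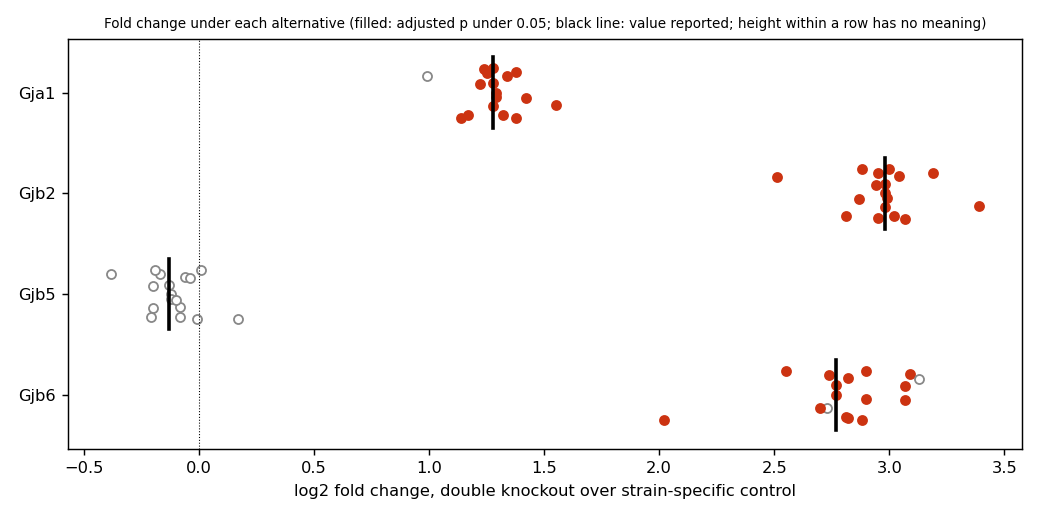
Log2 fold change of each connexin (horizontal axis) under 17 other ways of fitting, one point each; filled points have an adjusted p under 0.05 and the black line is the value reported. Gjb2 is filled throughout (2.51 to 3.39), Gja1 has 1 open point at 0.99, Gjb6 has 2 open points at 2.73 and 3.13, and Gjb5 is open throughout around 0.

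In the Tfap2b knockouts of 3 weeks, Gja1 stood at 210 and 232 CPM in replicates 1 and 2, and Gjb5 at 62.6 and 73.4 CPM. Gjb2 stood at 28.8 and 59.1 CPM, and Gjb6 at 0.385 and 2.00 CPM from 5 and 25 counts. For Gja1, Gjb2 and Gjb6 both libraries were below all double knockouts of 6 months, but genotype and age both differ and cannot be told apart. The 2 libraries also differed in tissue content. Replicate 1 held 2622 CPM over the dermal fibroblast markers and 3360 CPM over the adipocyte markers, against 23.3 and 1.84 CPM in replicate 2. The part of this in the gap between the 2 libraries was not tested.

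Levels of different genes were compared per exonic length, as CPM per exonic kb. In the controls the order of the 4 genes was Gja1 (77.7 ± 16.8), Gjb5 (44.0 ± 7.06), Gjb2 (9.86 ± 3.53) and Gjb6 (0.559 ± 0.118; SD, n = 3), and no neighbours in this order overlapped between libraries. In the double knockouts the order was Gja1 (198 ± 38.2), Gjb2 (82.4 ± 20.1), Gjb5 (42.5 ± 16.2) and Gjb6 (4.33 ± 3.13). Gjb2 thus stood above Gjb5, with the lowest Gjb2 library at 60.0 and the highest Gjb5 library at 58.0. Gja1 was the highest of the 4 and Gjb6 the lowest in both groups.

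**Figure D3:**
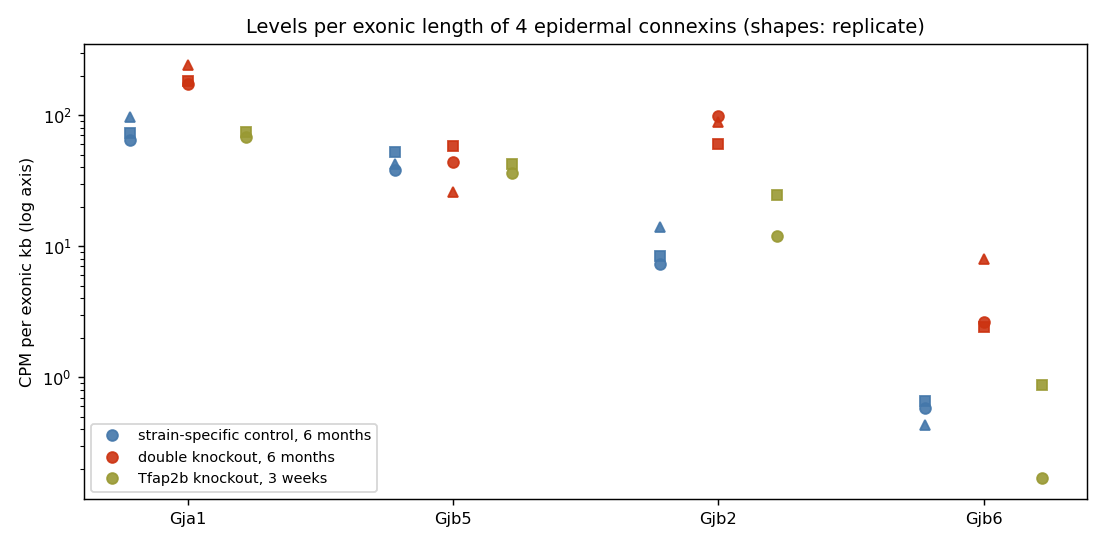
CPM per exonic kb (vertical log axis) of the 4 connexins, one point per library, circle, square and triangle for replicates 1, 2 and 3. Gjb2 moves from 9.86 in the controls to 82.4 in the double knockouts, above Gjb5 at 42.5, and Gjb6 stays the lowest of the 4.

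The sum over all 20 connexins was 278, 289 and 293 CPM per exonic kb in the controls and 472, 457 and 469 in the double knockouts, with no overlap between the groups. Gja1 made up 27.0% ± 5.17 of it in the controls and 42.6% ± 8.01 in the double knockouts. Gjb2 went from 3.42% ± 1.14 to 17.6% ± 4.07 and Gjb6 from 0.196% to 0.927%. The share of Gjb5 went from 15.3% ± 2.28 to 9.15% ± 3.60 with no called change in its own level. Within libraries, the ratio of Gja1 to Gjb2 per kb was 8.79, 8.64 and 6.95 in the controls and 1.75, 3.01 and 2.74 in the double knockouts. These shares and ratios are given as a description, without a test.

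The other 16 connexins gave 6 genes that passed the filter, of which 1 was called higher and 0 lower. Over all genes tested 6.26% were called higher and 8.59% lower. The median log2 fold change of the 6 was -0.30 against -0.04 over all genes tested. Gjb1, best known from liver and Schwann cells, was the called gene, with 5, 2 and 1 counts in controls 1, 2 and 3 and 34, 16 and 22 in double knockouts 1, 2 and 3 (edgeR log2 fold change 2.22, SE 0.817, adjusted p = 0.0456). Its call was lost under 10 of 16 alternatives, among them leaving out any 1 of the libraries other than control 3.

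Gja4, a connexin of vessel walls, stood at a mean of 1.64 CPM in the controls and 1.19 CPM in the double knockouts (log2 fold change -0.50, edgeR adjusted p = 0.526). Gja6 stood near the same level (-0.35, adjusted p = 0.686). The other 10 connexins were not tested and reached at most 4 counts in a double knockout library. Of these, Gja5 and Gjc1, whose control mean reached 1 CPM, held 18, 23 and 1 counts and 14, 22 and 5 counts in controls 1, 2 and 3, against receptor backgrounds of 9.25, 18.3 and 0.845 and of 8.05, 16.0 and 0.735 counts.

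Panx1, which forms channels in the plasma membrane without docking to a neighbour, rose from 20.1 ± 4.14 to 42.6 ± 8.44 CPM (log2 fold change 1.00 ± 0.210 SE, edgeR adjusted p = 0.0146). Panx2 and Panx3 did not pass the filter. Among 14 genes for partners and trafficking of connexins, 13 were tested, 1 was called higher and 2 lower, with a median log2 fold change of -0.31. Cav1, a caveola protein that binds connexins, rose by 0.64 (adjusted p = 0.0279). Pkp2, a desmosome protein, fell by 1.93 from 4.65 ± 2.95 CPM (adjusted p = 0.0421). Pkp2 stood at 3.24, 8.04 and 2.67 CPM in controls 1, 2 and 3, from 39 to 91 counts over 5.36 exonic kb. Controls 1 and 2 held the high receptor background, 1.61 and 3.19 counts per exonic kb. In the 3-week replicates 1 and 2, of which replicate 1 held far more dermal markers, Pkp2 stood at 18.0 and 1.04 CPM. Cav1 stood at 525 and 183 CPM in them. The part of dermal cells in the 6-month values of these 2 genes was not tested. The Pkp2 call was lost under 9 of 17 alternatives, with log2 fold changes of -2.36 to -1.16. Among 14 kinases and ubiquitin ligases that act on connexins, all 14 were tested, with 1 called higher, 1 lower and a median of 0.03. Over all genes tested 14.9% were called, 6.26% higher and 8.59% lower. The kinase list is near that share, so its calls are given gene by gene and not as a trait of the list. Prkca, a protein kinase C that phosphorylates the Gja1 protein, rose by 0.77 (adjusted p = 0.0365), and Mapk3, an ERK kinase, fell by 0.69 (adjusted p = 0.0151). The calls of all 5 of these genes, Panx1 included, were lost without double knockout 2, with adjusted p-values from 0.0527 for Mapk3 to 0.141 for Pkp2, while the directions stayed. Each was also lost without at least 1 other library, among them double knockout 1 for 4 of the 5 and double knockout 3 for Cav1 (0.54, adjusted p = 0.0827).

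**Figure D4:**
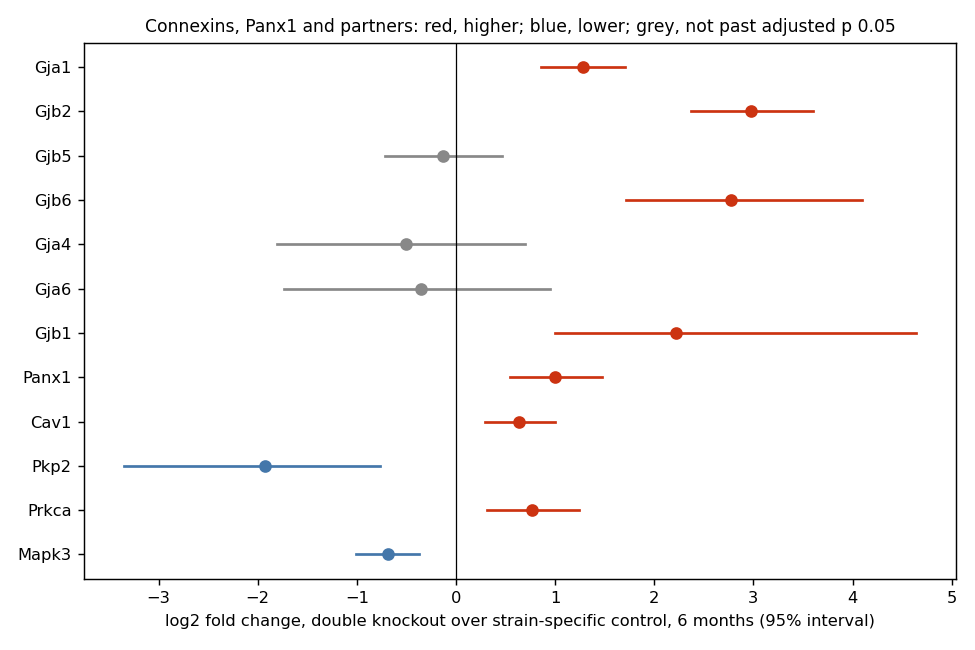
Log2 fold change of double knockout over strain-specific control at 6 months (horizontal axis) with 95% intervals, for connexins that passed the filter and for called genes of the pannexin, partner and kinase lists. Gjb2 (2.98) and Gjb6 (2.77) lie farthest to the right, and the interval of Gjb5 (-0.72 to 0.46) spans 0.

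On the chromosomes, Gjb2 and Gjb6 lie 18.6 kb apart, and both rose. Within 250 kb of them, Zmym2 gave a log2 fold change of -0.03 (edgeR adjusted p = 0.920), and Cryl1, a crystallin-related dehydrogenase gene, fell by 1.95 ± 0.481 SE from 12.1 to 3.24 CPM (adjusted p = 0.0266). Near Gjb5, within the same distance, Zmym6 gave 0.11 (adjusted p = 0.804), Tmem35b -0.13 (adjusted p = 0.894) and Gja4 the value given above. The single neighbour tested for Gja1, Tbc1d32, gave -0.16 (adjusted p = 0.624). No gene counted overlaps a member. Of the 50-base windows of Gja1 transcripts, 0.115% (12 of 10445) also occur in another gene, and 0 for Gjb2, Gjb5 and Gjb6.

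Genes with the most similar profile were sought over the 8 libraries, as the smallest root-mean-square difference of centred log2(CPM + 1) among 10309 genes with a mean of at least 5 CPM. This includes the 6-month groups, so it describes the profile and is no separate evidence. Nearest to Gja1 were Mgst2 (0.124), a microsomal glutathione transferase, Krt1 (0.176), the suprabasal keratin, and Zfp953 (0.182). Nearest to Gjb2 were Rbp2 (0.476), a retinol-binding protein, Endou (0.479), an RNA endonuclease of keratinocytes, and Porcn (0.496), the acyltransferase of Wnt proteins. For Gjb5 they were Pter (0.169), Ccdc171 (0.172) and Sphk1 (0.178), a sphingosine kinase. For Gjb6 they were Hpgd (0.307), which breaks down prostaglandins, Mab21l3 (0.396) and Pi15 (0.423). Among the members themselves the smallest difference was between Gja1 and Gjb6 (0.576) and the largest between Gjb2 and Gjb5 (1.49). Gjb6 had a mean of 1.27 CPM in the controls, where the 1 added to CPM shrinks its change. In the edgeR fit its log2 fold change (2.77) was nearer to that of Gjb2 (2.98) than to that of Gja1 (1.28).

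Among marker lists of keratinocyte states, basal, wound and proliferation sums did not overlap between the same groups, whereas the suprabasal and granular sums did. Over all genes tested 14.9% were called, 6.26% higher and 8.59% lower, and the granular and follicle lists below are near that share. The summed level of 10 basal keratinocyte markers, led by Krt5, Col17a1 and Krt14, was 9719 to 12352 CPM in the controls and 18135 to 21590 CPM in the double knockouts. Of these 6 were called higher and 0 lower. Krt15 of this list went the other way without a call (log2 fold change -1.39, edgeR adjusted p = 0.0513). It stood at 728, 1164 and 1187 CPM in controls 1, 2 and 3, and at 234, 673 and 330 CPM in double knockouts 1, 2 and 3. Of 11 wound and hyperproliferation markers tested, led by Krt6a, Krt16 and Krt17, 5 were called higher and 0 lower. Krt17 was not among the called genes (log2 fold change 0.55, edgeR adjusted p = 0.0672). The sum was 478 to 748 CPM in the controls and 3526 to 4760 CPM in the double knockouts. Of 10 proliferation markers 8 were called higher, and their sum was 144 to 245 CPM in the controls and 401 to 546 CPM in the double knockouts. The suprabasal sum overlapped between groups (12438 to 15150 and 13187 to 17287 CPM), with 2 of 10 called higher and 1 lower. The granular sum also overlapped (3742 to 6165 and 2314 to 4057 CPM), with 0 of 12 called higher and 2 lower. The sebaceous gland sum, led by Scd1, Fasn and Dgat2, was lower in the double knockouts (713 to 837 CPM, controls 1448 to 1585). Of its 8 tested markers 4 were called lower, and 7 had a log2 fold change below 0. Scd1 stood at 718, 848 and 775 CPM in controls 1, 2 and 3, and at 186, 224 and 168 CPM in double knockouts 1, 2 and 3. Dgat2 was also called lower (log2 fold change -0.67, edgeR adjusted p = 0.03), whereas Fasn was not called (-0.19, adjusted p = 0.312). The sebaceous sum is thus no measure of all gland markers. The sum of outer root sheath and follicle stem cell markers overlapped between groups (566 to 881 CPM in the controls, 466 to 949 CPM in the double knockouts). Of these 12 markers 0 were called higher and 2 lower, and 10 had a log2 fold change below 0. The called genes were Lgr5 (log2 fold change -3.63, edgeR adjusted p = 0.00785) and Fgf18 (-2.31, adjusted p = 0.00589). Double knockout 3, the high library for Gjb6, had the highest sum, 949 CPM. In that library the leading markers Krt79, Nfatc1 and Lrig1 were above every control, whereas Lgr5 and Fgf18 were below every control. The sum is thus no measure of all follicle markers. The part of these lists in the connexin values was not tested, and in whole sheets more cells of a state and more transcript per cell cannot be told apart.

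Markers of cells outside the epidermis were low at 6 months. The fibroblast sum was 59.5 to 169 CPM in the controls and 25.0 to 50.2 CPM in the double knockouts. Of its 8 markers 1 was called higher and 3 lower, where all genes tested gave 6.26% higher and 8.59% lower. The endothelial sum was 8.01 to 35.8 and 8.52 to 12.1 CPM, and 5 of 5 did not pass the test. Fibroblasts and vessel walls are also known to express Gja1, and the part of these cells in its values was not tested. No marker list held a gene at 0 in all 6 libraries.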

How the data were processed

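Total RNA of epidermal sheets was depleted of ribosomal RNA and sequenced as paired reads on a NovaSeq instrument, per the labels' protocols. The authors deposited whole-number counts per gene, not normalized. The submitters' processing notes name Trimmomatic 0.36, STAR 2.5.2b, featureCounts of Subread 1.5.2 and the builds GRCm38 and GRCh38. The use of strand and of reads mapping to several places is not given in the sources used here. Of the 49315 identifiers 48970 (99.3%) were in GENCODE M21 (GRCm38), 44772 with the same start and end, so coordinates were read as GRCm38 and symbols taken from M21.

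Samples were grouped by title. CPM were computed here from each library's total, without TMM factors. The 6-month groups were fitted with edgeR 4.0.16 in R 4.3.3 (filterByExpr, TMM, robust quasi-likelihood fit, prior count 2), with Benjamini-Hochberg adjustment over 17755 genes and a threshold of 0.05, and the fit was tested on simulated data. Of all genes, 2637 were called, 1111 higher and 1526 lower. Alternatives were DESeq2 1.42.0 and limma-voom (limma 3.58.1), other scalings and filters, a replicate block, all libraries in one fit, the receptor background subtracted, and leaving out each library. The control labelled replicate 3 as the only control was chosen after seeing the data. The members and gene lists were chosen with earlier results of these data known. Named genes were the members, the AP-2 genes, each called gene of the connexin, pannexin, partner and kinase lists, other connexins at 1 CPM or more in either group, up to 3 of the most abundant genes of a marker list, and the 3 genes most like each member. Neighbours within 250 kb were named besides, as were Krt15, Lgr5, Fgf18, S100a8, Rptn and Stfa1 of the marker lists. Some genes of these lists are not reported here. The 13 libraries at 0 were left out.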

Additional observations from a re-analysis of the deposited data

Results flagged for a closer look

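The Tfap2b knockout libraries of 3 weeks enter no comparison, since no control of their age held counts, but they contain connexin reads above the 3 counts that a count of 0 allows. Replicates 1 and 2 held 2723 and 2897 counts of Gja1, 373 and 739 counts of Gjb2, 812 and 919 counts of Gjb5, and 5 and 25 counts of Gjb6. Replicate 3 of that group is listed at 0 for every gene.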

How the results depend on the processing

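Over 17 alternatives Gja1 stayed between 0.99 and 1.55 and lost its call in 1, with control 3 as the only control (0.99). Gjb2 lost its call in none, and Gjb6 in 2, limma-voom (2.73) and control 3 as the only control (3.13). Leaving out one library at a time gave 1.14 to 1.55 for Gja1, 2.81 to 3.39 for Gjb2, 2.02 to 3.09 for Gjb6 and -0.38 to 0.17 for Gjb5. Gjb5 was above 0 without control 2 (0.01) and without double knockout 3 (0.17). Gja6 turned without control 3 (0.06), and leaving out one library gave it -0.61 to 0.06.

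The count of called genes, 2637, was 4809 with no filter, where the median log2 fold change of all genes shifted from -0.04 to -0.56, 3835 with DESeq2, 1548 with all libraries in one fit and 437 with control 3 as the only control. It ran from 668 without double knockout 1 to 7544 without control 3, and leaving out any 1 of the 6 libraries moved it by over 1.5 times. With total counts in place of TMM 1376 genes were higher and 1327 lower, against 1111 and 1526. The causes were not tested.

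With the replicate number as a block, 1729 genes were called. The block gave 1.28 for Gja1, 3.00 for Gjb2, -0.19 for Gjb5 and 2.55 for Gjb6 (edgeR adjusted p = 0.023), and changed no member's call; it ended those of Gjb1 (2.24), Cav1 (0.63), Pkp2 (-1.85) and Tfap2c (0.51). Deviations of same-numbered libraries correlated at 0.027, -0.161 and -0.0588, against -0.109 to 0.169 for the other pairs. These values give no sign of a pairing. With 3 libraries per group they cannot show whether same-numbered libraries were handled together, and the titles give only a number. Among the 4 members Gjb6 rests on the fewest counts (15 to 17 in a control), and Gjb1 held 1 to 5 counts in a control.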
